A study of Mus musculus with 7 samples.

Results

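The genes that take up, activate and oxidize fatty acids were followed in RNA of total mouse testis. The 38 genes were found by their symbols in a table of 19719 genes, and each symbol named 1 row. They comprise 10 genes of uptake and activation, 6 of the carnitine shuttle, 11 of mitochondrial beta-oxidation, 3 of electron transfer, 7 of peroxisomal beta-oxidation and the regulator *Ppara*. The libraries came from C57BL/6 males at 8 weeks of age, 3 from fl/Y controls and 4 from cKO/Y Sox2-Cre littermates. All 7 males carried a floxed *Rlim* allele on their single X chromosome, and the Sox2-Cre transgene, which acts in the early embryo and so deletes *Rlim* in somatic cells and in the germline alike, was carried by the cKO/Y males only. The labels call the controls WT and name the other group Rlim-KO. They also place fl/Y replicates 1 and 2 and cKO/Y replicates 1 and 2 in batch 2, and the other 3 libraries in batch 1.

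A fatty acid is activated when an acyl-CoA synthetase joins it to coenzyme A. For the mitochondrion, a CPT1 enzyme exchanges the coenzyme A for carnitine, the acylcarnitine crosses the inner membrane, and CPT2 restores the acyl-CoA, which is then shortened in rounds of dehydrogenation, hydration, a second dehydrogenation and thiolysis. The flavin-linked dehydrogenases pass their electrons to ETF and from there to the respiratory chain. Peroxisomes shorten very long and branched chains with enzymes of their own, and carnitine acyltransferases export the products. In the testis, Sertoli cells are known to oxidize fatty acids, including lipid from residual bodies and dying germ cells that they engulf, and sperm are rich in carnitine and carnitine acetyltransferase.

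Values are CPM, the reads of a gene scaled to a common library size. Depth ran from 2822168 to 8633399 reads over the table's genes. With a count of 0 the level could still be up to 3 reads, or 0.301 to 0.945 CPM depending on the library, by counting error alone. *Rlim* itself (chromosome X, 103957163 to 103981284 in GRCm38) was at 61.5 to 99.5 CPM in fl/Y and 20.7 to 35.7 CPM in cKO/Y libraries, a log2 fold change of -1.38 (SE 0.16, adjusted p = 0.0087 by limma with the batch as a covariate). Without the batch term the same value was -1.48 with an adjusted p of 0.921, and the call was also lost without fl/Y replicate 1 (-1.28, adjusted p = 0.165), fl/Y replicate 3 (-1.29, adjusted p = 0.673) or cKO/Y replicate 4 (-1.35, adjusted p = 0.052). *Rlim* was the only gene at an adjusted p under 0.05, which is 0.00515% of the 19400 genes tested. Germ cell RNA was abundant in each library, with 9146 to 14230 CPM over 10 elongating spermatid markers. In RNA of a whole organ, fewer cells of a type and less RNA per cell cannot be told apart.

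Summed per length, the genes of fatty acid uptake and activation stood above each other group of the pathway in both genotypes. Levels were compared between genes as CPM per kb of exon, counting all annotated exon bases. In fl/Y testes the 10 uptake and activation genes summed to 210 ± 5.51 CPM per kb (SD, n = 3), the 6 genes of the carnitine shuttle to 125 ± 19.3, the 11 mitochondrial genes to 76.8 ± 0.916, the 7 peroxisomal genes to 21.7 ± 0.818 and the 3 electron transfer genes to 11.6 ± 2.00. The corresponding sums in cKO/Y testes were 195 ± 24.1, 138 ± 22, 77.8 ± 6.95, 21.4 ± 2.08 and 11 ± 1.97 CPM per kb (SD, n = 4). For each of these 5 groups the means of the genotypes differed by less than the SD over the cKO/Y libraries. Per kb of the longest coding transcript the fl/Y sums were 337 ± 8.65, 163 ± 24.9, 156 ± 2.43, 37.9 ± 1.08 and 21.9 ± 3.88 CPM per kb, so that on this scale the shuttle and the mitochondrial genes were close. The 2 highest sums rested largely on a few genes. Per kb of exon in fl/Y, *Acsbg2*, *Acsl1* and *Acsbg1* were at 72.9, 62.2 and 37.6 CPM. The uptake genes *Slc27a1*, *Slc27a4* and *Slc27a2* were at 4.22, 1.11 and 0.509. In the shuttle *Crat* alone was at 90.7. Single genes did not follow the order of the sums, since *Hadha* and *Acaa2* of mitochondrial oxidation (27.9 and 12.5 CPM per kb of exon) were above *Acsl3*, *Acsl4*, *Acsl5* and *Acsl6* (6.86 to 8.87 CPM per kb of exon).

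The highest level per length belonged to *Crat*, which encodes the carnitine acetyltransferase, with 90.7 ± 12.7 CPM per kb in fl/Y and 98.7 ± 18.3 in cKO/Y. It was followed in fl/Y by *Acsbg2* with 72.9 ± 6.33, *Acsl1* with 62.2 ± 1.24 and *Acsbg1* with 37.6 ± 5.37 CPM per kb. *Acsl1* is the long-chain acyl-CoA synthetase known best from fat, heart and liver, and *Acsbg1* and *Acsbg2* encode the bubblegum synthetases, the second of which is known as a testis form. The fl/Y libraries of *Crat* and *Acsbg2* overlapped, whereas those of *Acsbg2*, *Acsl1*, *Acsbg1* and *Hadha* did not overlap from one to the next. *Hadha* and *Hadhb*, the alpha and beta subunits of the mitochondrial trifunctional protein, were at 27.9 ± 1.82 and 11.5 ± 1.24 CPM per kb. Dividing by the longest coding transcript in place of all exon bases raised *Acsl1* to 167 ± 3.34 CPM per kb, above *Crat* with 116 ± 16.2 and *Acsbg2* with 72.9 ± 6.33, because 10483 exon bases are annotated for *Acsl1* and its longest coding transcript has 3897.

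At the other end were *Ehhadh*, *Acaa1b*, *Slc27a2* and *Ppara*. *Ppara*, the nuclear receptor that drives genes of fatty acid oxidation in liver, was at 0.701 ± 0.0228 CPM per kb in fl/Y. *Slc27a2* was at 0.509 ± 0.0249, *Acaa1b* at 0.447 ± 0.141 and *Ehhadh*, the peroxisomal bifunctional enzyme induced in liver by PPARA ligands, at 0.331 ± 0.365 CPM per kb. These 3 genes had between 1 and 14 reads in a library, and the fl/Y libraries of *Slc27a2*, *Acaa1b* and *Ehhadh* overlapped in this order.

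**Figure D1:**
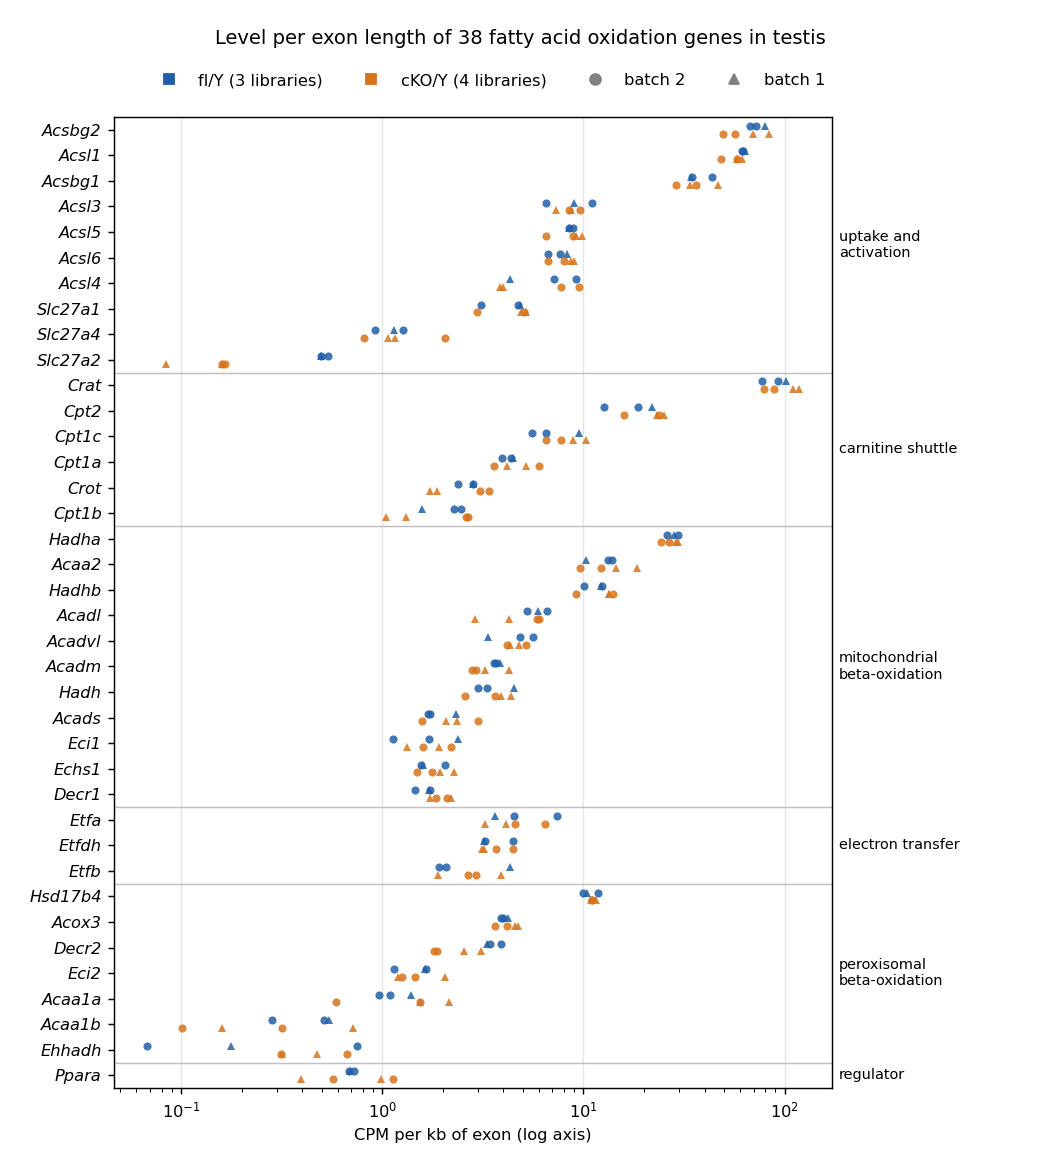
Level of the 38 genes in CPM per kb of exon on a log axis, with genes grouped by step and ordered by their mean in fl/Y. Each point is 1 library, in blue for fl/Y (3) and in orange for cKO/Y (4), as circles for batch 2 and triangles for batch 1. *Crat*, *Acsbg2* and *Acsl1* lie at the right, *Acaa1b* and *Ehhadh* at the left, and *Slc27a2* is the gene with the widest gap between the colours. It has 1 to 10 reads in a library and exceeded 1 CPM in the fl/Y libraries only, so nothing is read from that gap.

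To show the start sites of strongly expressed synthetase genes, the 150 bases before annotated RefSeq starts are given 5′ to 3′ on the gene's strand (GRCm38.p6), with GC boxes (GGGCGG on either strand) and CCAAT boxes (CCAAT on either strand) in capitals. *Acsl1* has starts at 2 places on chromosome 8, of which the upstream one is preceded by GC boxes (chr8:46470887-46471036) and the downstream one by a CCAAT box (chr8:46490816-46490965), both on the plus strand. Counts per gene do not separate them. *Acsbg1* is shown on the minus strand (chr9:54661886-54662035).
Acsl1 upstream start: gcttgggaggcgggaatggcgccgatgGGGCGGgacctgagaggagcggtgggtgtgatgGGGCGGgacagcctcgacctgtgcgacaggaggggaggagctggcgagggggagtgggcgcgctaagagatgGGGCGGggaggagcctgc
Acsl1 downstream start: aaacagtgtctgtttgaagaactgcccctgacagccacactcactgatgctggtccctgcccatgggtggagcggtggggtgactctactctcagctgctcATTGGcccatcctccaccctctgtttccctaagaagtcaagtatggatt
Acsbg1: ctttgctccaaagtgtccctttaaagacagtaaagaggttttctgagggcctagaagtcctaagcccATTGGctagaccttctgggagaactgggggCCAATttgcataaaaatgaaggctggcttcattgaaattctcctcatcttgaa

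RefSeq windows were at hand for 32 of the 38 genes, as 37 windows of 250 bases before a start. A GC box was in 27 of the 37 (73%), against 50.6% of the windows of all tested genes and 32.7% of all windows. A CCAAT box was in 19 (51.4%), against 34.7% and 33.8%. The letters TATAAA were in 0 of the 37 windows, against 7.4% of the windows of tested genes. The letters TGACGTCA, a cyclic AMP response element, and the DR1 element, the direct repeat with a spacer of 1 base that PPARA binds with its partner, were in none of the 37 either, against 2.39% and 0.05% of the windows of tested genes. These shares describe letters in a short window and not binding.

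No gene of the pathway passed the test between the genotypes. The comparison asks which of these RNAs differ in testes that lack *Rlim*. All 38 genes were above 1 CPM in at least 3 libraries and were tested. Of them 0 reached an adjusted p under 0.05 by limma, against 0.00515% of all genes tested, and 0 did so by edgeR or DESeq2 on the reads recovered from the CPM. At an unadjusted p under 0.05, 2 (5.26%) were lower in cKO/Y, *Slc27a2* and *Decr2*, where 1.37% of all genes tested were lower, and 0 were higher, where 1.22% were. *Slc27a2* exceeded 1 CPM in the fl/Y libraries only and entered the test through them. Its groups therefore could not overlap, and nothing is read from the count of 2. Every cKO/Y library was below every fl/Y library for the same 2 genes (background 1.59%) and above for 1 gene, *Decr1* (background 1.34%). The separation of *Slc27a2* was fixed by how it entered the test, so nothing is read from this count of 2 either. The median log2 fold change of the 38 genes was 0.026, with 17 below 0 and 21 above, beside -0.006 over all genes tested. The sign was the same within both batches for 17 of the 38, or 8 lower and 9 higher. Over all tested genes the sign was the same for 48.4%.

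The intervals were narrow for most of the pathway. For 34 of the 38 genes (89.5%) the 95% interval of the log2 fold change lay between -1 and 1, that is, within a 2-fold change in either direction, where the same held for 77% of all genes tested. The 4 others were *Slc27a2*, *Decr2*, *Acaa1b* and *Ehhadh*. An interval of this kind bounds a difference and does not show that levels were equal.

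**Figure D2:**
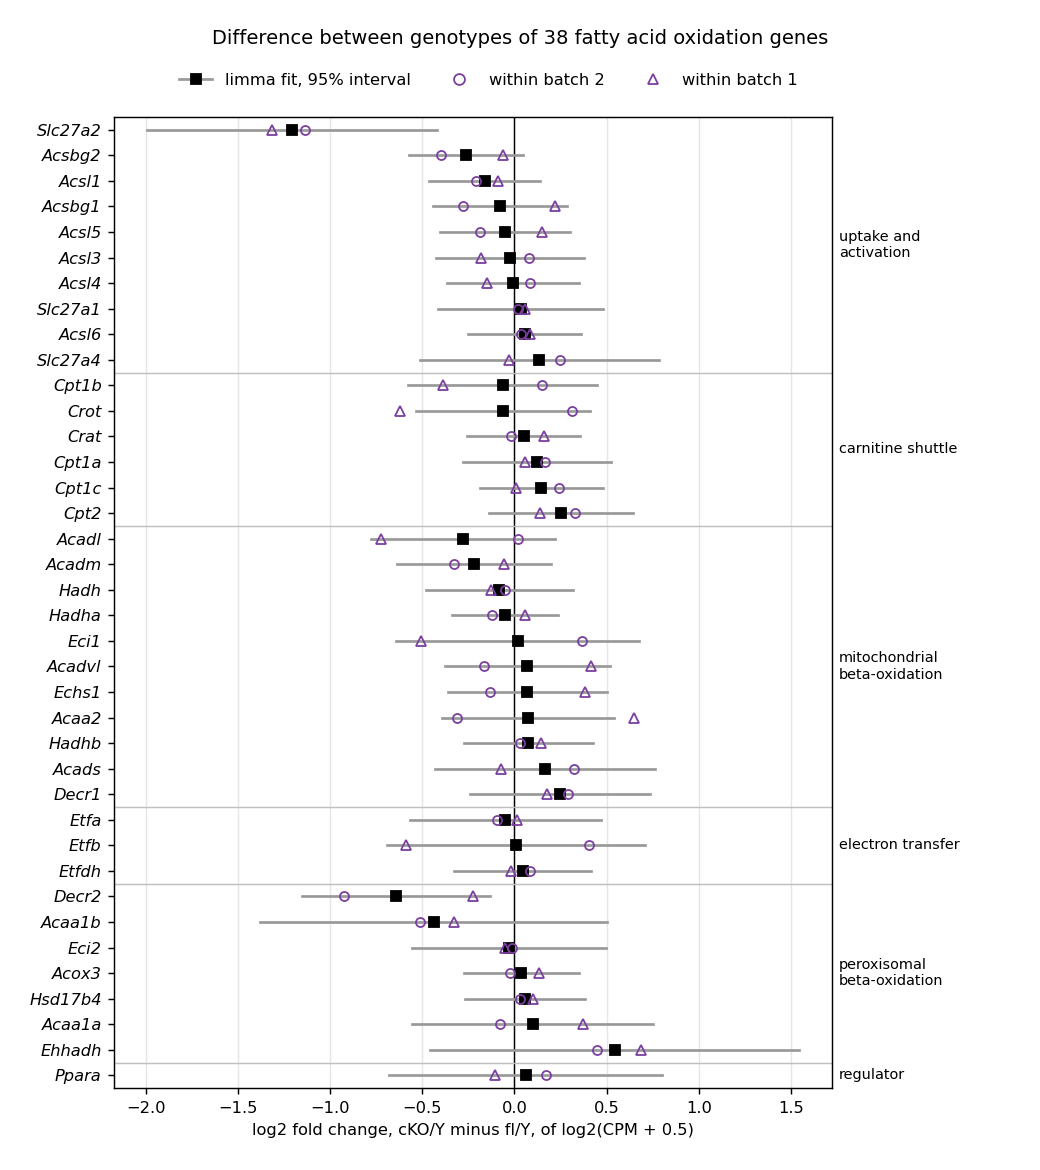
Log2 fold change of the 38 genes, cKO/Y minus fl/Y, on the scale of log2(CPM + 0.5). Black squares with grey bars are the limma values with the batch as a covariate and their 95% intervals, and open symbols are the differences within batch 2 (circles) and within batch 1 (triangles, which rest on 1 fl/Y library). The intervals of *Slc27a2* and *Decr2* lie below 0 and the other 36 cross it.

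Among the genes of uptake and activation, *Slc27a2* (chromosome 2, 126552407 to 126588243) encodes a fatty acid transport protein that is also a very long-chain acyl-CoA synthetase and is known from liver and kidney. Its level was 1.86, 2.02 and 1.86 CPM in fl/Y replicates 1 to 3 and 0.620, 0.598, 0.315 and 0.602 CPM in cKO/Y replicates 1 to 4. The groups did not overlap, and all cKO/Y libraries were under 1 CPM, so that the gene entered the test through the fl/Y libraries alone and could not be tested with any of these left out. The values stand for 10, 10 and 7 reads against 2, 3, 1 and 6 reads. The log2 fold change was -1.21 (SE 0.37, 95% interval -1.99 to -0.42, unadjusted p = 0.0051, adjusted p = 1.00 by limma), with -1.14 within batch 2 and -1.31 within batch 1. On this scale the pseudocount matters for so low a gene, and it was -1.66 with 0.1 CPM and -0.91 with 1 CPM in place of 0.5. Pooling the reads, 12 in cKO/Y against 27 in fl/Y, gave a ratio of 0.293 with an exact 95% interval of 0.135 to 0.598 for counting error only. Of its exon bases 11.2% are shared with *Gm26697* on the opposite strand, and the sources used here do not state whether strand was counted.

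The 30 bases from 70 to 41 before the RefSeq start of *Slc27a2* (chr2:126552954-126552983, plus strand, GRCm38.p6) hold 2 GC boxes, shown in capitals, and lie in exons of the GENCODE annotation.
Slc27a2: ggGGGCGGgacccacggccgtcCCGCCCgc

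The relatives of *Slc27a2* had other values. *Slc27a1*, the transporter known from muscle and fat, was at 18, 27.7 and 28.1 CPM in fl/Y and at 29.5, 17.3, 30.2 and 28.4 CPM in cKO/Y. *Slc27a4* was at 4.04 to 5.58 CPM in fl/Y and 3.59 to 9 CPM in cKO/Y, and for both the groups overlapped. As a share of the 3 *Slc27* genes per kb, *Slc27a2* made up 10.2, 8.68 and 7.66% in fl/Y and 2.28, 4.04, 1.32 and 2.59% in cKO/Y libraries. The shares of *Slc27a2* did not overlap between the genotypes. They use the same reads as the values above, and the gene entered the test through the fl/Y libraries alone, so nothing is read from this separation.

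The long-chain synthetases were dominated by *Acsl1*. It was at 639, 650 and 665 CPM in fl/Y and at 508, 611, 642 and 608 CPM in cKO/Y, so that 3 of 4 cKO/Y libraries lay below the lowest fl/Y library. The log2 fold change was -0.16 (SE 0.14, 95% interval -0.47 to 0.14, adjusted p = 1.00). *Acsl1* made up 66.2 ± 3.03% of the 5 *Acsl* genes per kb in fl/Y and 64.2 ± 2.87% in cKO/Y, and 80.9 ± 1.89% in fl/Y by the longest coding transcript.

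The other 4 *Acsl* genes lay between 20.7 and 88.5 CPM in all libraries. *Acsl3*, tied to lipid droplets, was at 28.5 to 48.2 CPM in fl/Y and 31.8 to 41.7 CPM in cKO/Y. *Acsl5*, known from intestine and liver, was at 41.3 to 43.0 and 31.6 to 47.7 CPM. *Acsl6*, known from brain and from spermatids, was at 66.0 to 82.0 and 66.0 to 88.5 CPM, and *Acsl4*, which prefers arachidonic acid, was at 23.3 to 49.5 and 20.7 to 51.4 CPM. Their groups overlapped, and their log2 fold changes lay between -0.050 and 0.055.

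*Acsbg2* (chromosome 17) was at 175, 188 and 208 CPM in fl/Y and at 128, 148, 218 and 181 CPM in cKO/Y. The 2 cKO/Y libraries of batch 2 were below all fl/Y libraries, and those of batch 1 were not. Its log2 fold change was -0.26 (SE 0.14, 95% interval -0.57 to 0.045, unadjusted p = 0.088, adjusted p = 1.00), with -0.40 within batch 2 and -0.064 within batch 1. Without cKO/Y replicate 3 its unadjusted p passed 0.05. *Acsbg1* was at 123 to 158 CPM in fl/Y and 103 to 168 CPM in cKO/Y, with a log2 fold change of -0.079 (SE 0.17). Per kb, *Acsbg2* made up 66.0 ± 3.89% of the pair in fl/Y and 63.8 ± 4.30% in cKO/Y.

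**Figure D3:**
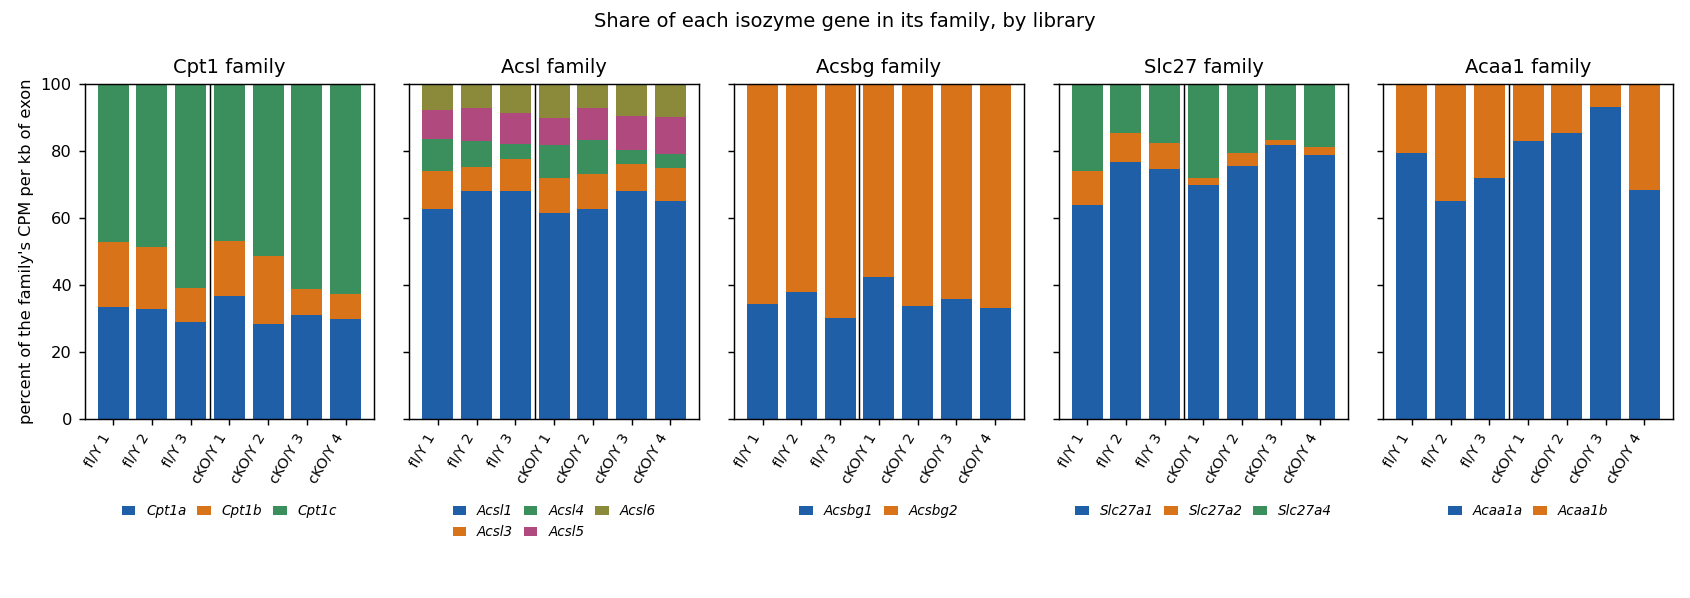
Share of each isozyme gene in the summed CPM per kb of exon of its family, with 1 stacked bar per library and a line between the 3 fl/Y and the 4 cKO/Y libraries. *Cpt1c* and *Cpt1a* hold most of the *Cpt1* family, *Acsl1* most of the *Acsl* family, and the band of *Slc27a2* is between 7.66 and 10.2% in fl/Y and between 1.32 and 4.04% in cKO/Y.

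In the carnitine shuttle, *Cpt2*, the enzyme of the inner mitochondrial membrane, was at 30.1, 44.6 and 52.5 CPM in fl/Y and at 56.5, 37.9, 55.4 and 60.4 CPM in cKO/Y. In 3 of 4 cKO/Y libraries it was above the highest fl/Y library. The log2 fold change was 0.25 (SE 0.18, 95% interval -0.14 to 0.65, adjusted p = 1.00), with 0.33 within batch 2 and 0.14 within batch 1. It was 0.095 without fl/Y replicate 1 and 0.092 without cKO/Y replicate 1.

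Among the 3 *Cpt1* genes, the RNA of the brain form *Cpt1c* was the most abundant per length, which does not measure enzyme activity. *Cpt1c* made up 52.4 ± 7.60% of the 3 genes per kb in fl/Y and 55.6 ± 7.70% in cKO/Y, the liver form *Cpt1a* 31.7 ± 2.52 and 31.4 ± 3.71%, and the muscle form *Cpt1b* 16.0 ± 5.08 and 13 ± 6.44%. In CPM, *Cpt1c* was at 31.0 to 53.3 in fl/Y and 36.7 to 57.6 in cKO/Y, *Cpt1a* at 29.9 to 34.2 and 27.5 to 45.9, and *Cpt1b* at 5.30 to 8.28 and 3.51 to 9. Of the exon bases of *Cpt1b*, 81.4% also belong to the read-through gene *Gm44502* on the same strand, so that its reads could be split or left out by the counting and its share is uncertain.

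*Crat* was at 415, 501 and 550 CPM in fl/Y and at 476, 425, 637 and 590 CPM in cKO/Y. The groups overlapped, and the log2 fold change was 0.051 (SE 0.14, 95% interval -0.26 to 0.36). *Crot*, the peroxisomal octanoyltransferase, was at 12.9 to 15.4 CPM in fl/Y and 9.45 to 18.6 CPM in cKO/Y, and its difference was 0.31 within batch 2 and -0.62 within batch 1 on the log2 scale.

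Within mitochondrial beta-oxidation, the acyl-CoA dehydrogenases, which are named for the chain lengths they accept, were low next to the synthetases *Acsl1*, *Acsbg1* and *Acsbg2*. *Acadl*, the long-chain form, was at 13.2, 10.5 and 11.9 CPM in fl/Y and at 12.1, 11.8, 8.5 and 5.82 CPM in cKO/Y. Its 2 cKO/Y libraries of batch 1 were the lowest of all 7. The log2 fold change was -0.28 (SE 0.24, adjusted p = 1.00), from 0.018 within batch 2 and -0.72 within batch 1.

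*Acadm*, the medium-chain form, was at 14.1, 14.3 and 15.1 CPM in fl/Y and at 11.5, 11, 16.7 and 12.7 CPM in cKO/Y, with 3 of 4 cKO/Y libraries below all fl/Y libraries. The log2 fold change was -0.22 (SE 0.20, 95% interval -0.64 to 0.20, adjusted p = 1.00). *Acadvl*, the very long-chain form, was at 9.02 to 15.1 and 11.2 to 14.0 CPM, and *Acads*, the short-chain form, at 3.84 to 5.30 and 3.59 to 6.82 CPM. Of the exon bases of *Acadvl*, 42.9% are shared with *Dvl2* on the opposite strand.

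The later steps of the round were led by *Hadha*, with 226 to 258 CPM in fl/Y and 212 to 257 CPM in cKO/Y, and *Hadhb*, with 66.6 to 81.2 and 60.8 to 92.9 CPM. The 2 genes lie head to head on chromosome 5, *Hadha* from 30118304 to 30155162 on the minus strand and *Hadhb* from 30155248 to 30184593 on the plus strand. The ratio of *Hadha* to *Hadhb* per kb was 2.45 ± 0.428 in fl/Y and 2.22 ± 0.306 in cKO/Y, and 1.65 ± 0.289 and 1.5 ± 0.206 by the longest coding transcript. Of the 35-base words of *Hadhb*, 22.6% also occur in transcripts of other genes, so its reads may be undercounted.

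The remaining mitochondrial genes lay below 30 CPM. The thiolase *Acaa2* was at 15.7 to 21 CPM in fl/Y and 14.6 to 28.0 CPM in cKO/Y, the dehydrogenase *Hadh* at 14.9 to 22.5 and 12.8 to 21.7, and the hydratase *Echs1* at 12.9 to 16.9 and 12.4 to 18.9. *Eci1*, an isomerase for unsaturated chains, was at 2.42 to 5.04 and 2.81 to 4.65 CPM. *Decr1*, the mitochondrial 2,4-dienoyl-CoA reductase, was at 6.69, 5.65 and 6.63 CPM in fl/Y and 7.13, 8.17, 8.5 and 6.73 CPM in cKO/Y. Every cKO/Y library was above every fl/Y library, the nearest at 6.73 against 6.69 CPM, and the log2 fold change was 0.25 (SE 0.23, 95% interval -0.24 to 0.73, adjusted p = 1.00).

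*Etfa* and *Etfb* encode the subunits of the electron transfer flavoprotein and *Etfdh* the oxidoreductase that takes over its electrons. They were at 6.63 to 13.6, 2.23 to 5.04 and 24.1 to 33.5 CPM in fl/Y and at 5.92 to 11.8, 2.20 to 4.52 and 23.6 to 33.5 CPM in cKO/Y. Their log2 fold changes were between -0.050 and 0.044, and none had the same sign within both batches. Of the exon bases of *Etfb*, 58.2% belong also to *Gm45233* or *Mir7051* on the same strand.

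In peroxisomal beta-oxidation, *Decr2* (chromosome 17, 26081211 to 26090329), the peroxisomal 2,4-dienoyl-CoA reductase, was at 9.11, 10.3 and 8.75 CPM in fl/Y and at 4.96, 4.78, 8.19 and 6.73 CPM in cKO/Y. All cKO/Y libraries were below the lowest fl/Y library, those of batch 2 by more than those of batch 1. These values stand for 49, 51 and 33 reads against 16, 24, 26 and 67 reads. The log2 fold change was -0.64 (SE 0.24, 95% interval -1.15 to -0.13, unadjusted p = 0.017, adjusted p = 1.00 by limma), with -0.92 within batch 2 and -0.22 within batch 1. Leaving out fl/Y replicate 2 moved it to -0.53, where the unadjusted p no longer passed 0.05. The ratio of the pooled reads was 0.660 with an exact 95% interval of 0.515 to 0.845 for counting error only. The 30 bases from 35 to 6 before a RefSeq start of *Decr2* (chr17:26090170-26090199, minus strand, GRCm38.p6) hold 1 GC box, in capitals, and lie in annotated exons.
Decr2: acccccgtctgatGGGCGGcttgatgtggg

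The mitochondrial and the peroxisomal reductase thus had log2 fold changes of opposite sign, 0.25 for *Decr1* and -0.64 for *Decr2*. The difference between them was not tested. *Ehhadh* was at 2.23, 0.202 and 0.530 CPM in fl/Y and at 0.931, 1.99, 0.945 and 1.41 CPM in cKO/Y, from 12, 1 and 2 against 3, 10, 3 and 14 reads. The fl/Y libraries alone spanned the whole range, and the log2 fold change was 0.54 (SE 0.47, 95% interval -0.46 to 1.55, adjusted p = 1.00). It was 0.078 without fl/Y replicate 2 and 0.77 without cKO/Y replicate 1. Without fl/Y replicate 1, cKO/Y replicate 2 or cKO/Y replicate 4, the libraries in which it exceeded 1 CPM, *Ehhadh* could not be tested.

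*Acaa1a* and *Acaa1b* are near-identical thiolase genes on chromosome 9. They were at 4.24 to 6.10 and 0.558 to 1.06 CPM in fl/Y and at 2.59 to 9.45 and 0.199 to 1.41 CPM in cKO/Y. Of the 35-base words of *Acaa1b*, 47.6% occur in other genes, mainly in *Acaa1a*, so that the split between them is uncertain. *Hsd17b4*, the D-bifunctional protein, was at 33.7 to 40.2 CPM in fl/Y and 36.9 to 39.4 CPM in cKO/Y, and *Acox3*, an oxidase of branched chains, at 44.8 to 48.8 and 41.9 to 54.5 CPM. *Eci2* was at 6.32 to 9.09 and 6.62 to 11.3 CPM. The regulator *Ppara* was at 2.63 to 2.79 CPM in fl/Y and 1.51 to 4.34 CPM in cKO/Y, with a log2 fold change of 0.061 (SE 0.35).

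**Figure D4:**
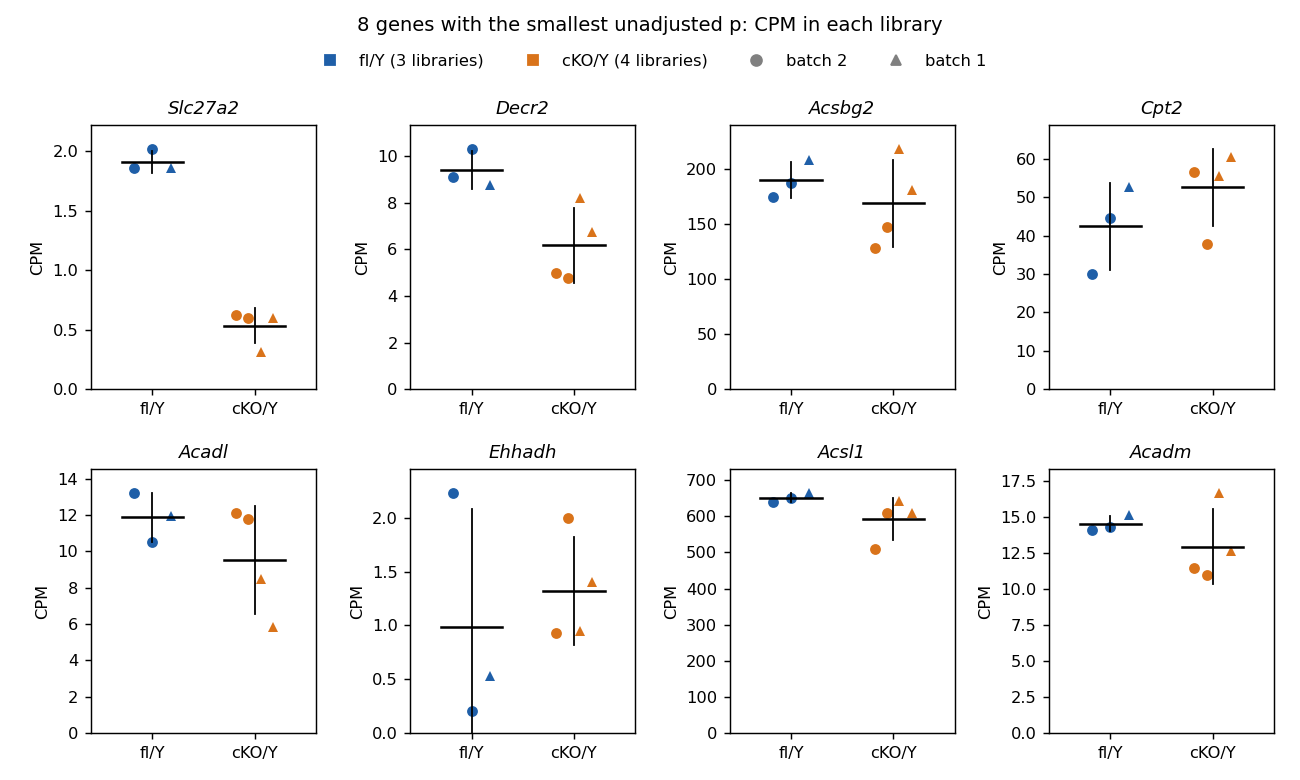
CPM in each library for the 8 genes of the pathway with the smallest unadjusted p, with fl/Y (3 libraries) in blue and cKO/Y (4 libraries) in orange, circles for batch 2 and triangles for batch 1. Horizontal lines are means and vertical lines 1 SD, cut at 0 for *Ehhadh*. The groups are apart for *Slc27a2* and *Decr2* and overlap for the other 6 genes. *Slc27a2* entered the test through the fl/Y libraries alone, so nothing is read from its separation.

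Other genes of fatty acid metabolism were counted in the same fit. Of 62 other genes listed under fatty acid oxidation, not all of them enzymes of beta-oxidation, 54 were in the table and tested. Of these, 0 passed an adjusted p of 0.05. At an unadjusted p under 0.05, 2 were lower and 0 higher (background 1.37% and 1.22%), and the median log2 fold change was -0.019. The 2 were *Gcdh*, the glutaryl-CoA dehydrogenase, with 10.4 ± 1.99 CPM in fl/Y and 7.36 ± 1.28 CPM in cKO/Y (log2 fold change -0.52, SE 0.22, unadjusted p = 0.032), and *Pparg*, a receptor of fat cell differentiation, with 3.51 ± 1.57 and 1.86 ± 0.501 CPM (log2 fold change -0.75, SE 0.35, unadjusted p = 0.048). Of 23 elongases and desaturases, 19 were tested, with a median log2 fold change of -0.053, and 0 of them had an unadjusted p under 0.05.

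The summed markers of each cell type overlapped between the genotypes. Sertoli cell markers (18 of 18 listed) were at 730 to 1040 CPM in fl/Y and 759 to 1198 CPM in cKO/Y, and Leydig cell markers (9 of 10) at 504 to 642 and 463 to 810 CPM. Of the 18 Sertoli markers 11 had a log2 fold change above 0 (median 0.077), as did 6 of the 9 Leydig markers (median 0.052). Of the 9 Leydig markers, 2 were lower at an unadjusted p under 0.05, where 1.37% of all genes tested were. *Hsd3b6* was at 54.3 ± 13.9 against 29.6 ± 20.5 CPM (log2 fold change -1.27, SE 0.36, unadjusted p = 0.0031 by limma). Its cKO/Y libraries ran from 8.38 CPM in replicate 1 to 57.6 CPM in replicate 3, with -1.77 within batch 2 and -0.52 within batch 1. *Star* was at 81.2 ± 11.6 against 64.9 ± 6.51 CPM (log2 fold change -0.33). For both genes the groups overlapped. These 2 and the markers that follow were picked for their p after the values were seen, namely *Rhox5* of Sertoli cells and *Stra8* of spermatogonia, which were lower at an unadjusted p under 0.05, and *Pecam1* of endothelium, which was higher. In the same fit *Slc27a2*, which entered the test through the fl/Y libraries alone, had a log2 fold change of -1.21. The part of any cell type in that value was not tested. The picked lower markers belong to Leydig cells, Sertoli cells and spermatogonia, so they do not single out Leydig cells.

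Markers of round spermatids summed to 1344 to 1718 CPM in fl/Y and 1326 to 1791 CPM in cKO/Y, of elongating spermatids to 9829 to 12640 and 9146 to 14230 CPM, of meiotic spermatocytes to 3812 to 4941 and 3809 to 5282 CPM, and of spermatogonia to 114 to 119 and 102 to 140 CPM. Peritubular myoid markers (8) were at 282 to 336 and 223 to 407 CPM, macrophage markers (10) at 276 to 318 and 232 to 338 CPM, and endothelial markers (8) at 42.9 to 54.4 and 38.3 to 65.8 CPM. Red blood cell markers (3 of 5 listed) were at 16.4 to 28.4 and 17.3 to 23.6 CPM, fat cell markers (4 of 7) at 14.1 to 20.6 and 13.7 to 17.6 CPM, and epididymis markers (3 of 8) at 351 to 490 and 371 to 431 CPM. *Cfd* of fat cells and *Rnase10* of the epididymis were listed at 0 in at least 1 library.

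Some of these RNAs followed the batch. This comparison was added after the values were seen and takes the batch term of the same fit, batch 2 minus batch 1. The labels do not say what the batches differ in. Of the 38 genes, 2 were higher in batch 2 at an adjusted p under 0.05, where 3.46% of all genes tested were, and 0 were lower, where 3.6% were. The 4 libraries of batch 2 were all above the 3 of batch 1 for 4 genes (10.5%, background 11.6%) and all below for 5 genes (13.2%, background 12.1%), which is close to the background.

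*Acsl4* (chromosome X, 142317993 to 142390535) was at 49.5, 38.4, 41.6 and 51.4 CPM in the libraries of batch 2 and at 23.3, 21.4 and 20.7 CPM in those of batch 1. Each batch holds both genotypes, and within a batch the genotypes were close, with log2 differences of 0.085 in batch 2 and -0.15 in batch 1. The log2 difference between batches was 1.02 (SE 0.17, adjusted p = 0.0045 by limma). *Cpt1b* was at 7.62, 8.28, 9 and 8.77 CPM in batch 2 and 5.30, 4.41 and 3.51 CPM in batch 1, a log2 difference of 0.86 (SE 0.24, adjusted p = 0.044). *Acsl4* was no longer called without fl/Y replicate 3, and *Cpt1b* without any 1 library other than cKO/Y replicate 1. *Etfa* and *Etfdh* were the other 2 genes with all libraries of batch 2 above those of batch 1.

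The 5 genes with all libraries of batch 2 below those of batch 1 were *Cpt1c*, *Crat*, *Acsl6*, *Hadh* and *Acox3*. *Cpt1c* was at 36.8 ± 4.94 CPM in batch 2 (SD, n = 4) and 53.6 ± 3.93 CPM in batch 1 (SD, n = 3), a log2 difference of -0.52 (SE 0.16, adjusted p = 0.059). *Crat* was at 454 ± 41.3 and 592 ± 44.0 CPM, a log2 difference of -0.38 (SE 0.14, adjusted p = 0.12). With *Cpt1b* and *Cpt1c* apart in opposite directions, *Cpt1c* made up 47 to 51.4% of the *Cpt1* genes per kb in batch 2 and 61.1 to 62.9% in batch 1, while *Cpt1b* made up 16.3 to 20.4 and 7.38 to 10.1%. Elongating spermatid markers moved with the batch as well, with 9146 to 10430 CPM in batch 2 and 12480 to 14230 CPM in batch 1, as did round spermatid markers with 1326 to 1498 and 1633 to 1791 CPM. Peritubular myoid markers, with 223 to 312 CPM in batch 2 and 331 to 407 CPM in batch 1, and endothelial markers, with 38.3 to 52.4 and 54.4 to 65.8 CPM, were apart by batch too. The part of these 4 marker lists in the batch differences of *Crat*, *Cpt1c* and *Acsl4* was not tested.

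The 150 bases before the start of *Acsl4*, the gene with the largest batch difference among the 38, are given on the minus strand (chrX:142390536-142390685, GRCm38.p6), with 2 overlapping GC boxes in capitals.
Acsl4: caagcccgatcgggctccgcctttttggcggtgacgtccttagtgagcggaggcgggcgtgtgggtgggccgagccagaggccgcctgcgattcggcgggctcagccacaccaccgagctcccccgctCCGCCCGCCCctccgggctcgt

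**Figure D5:**
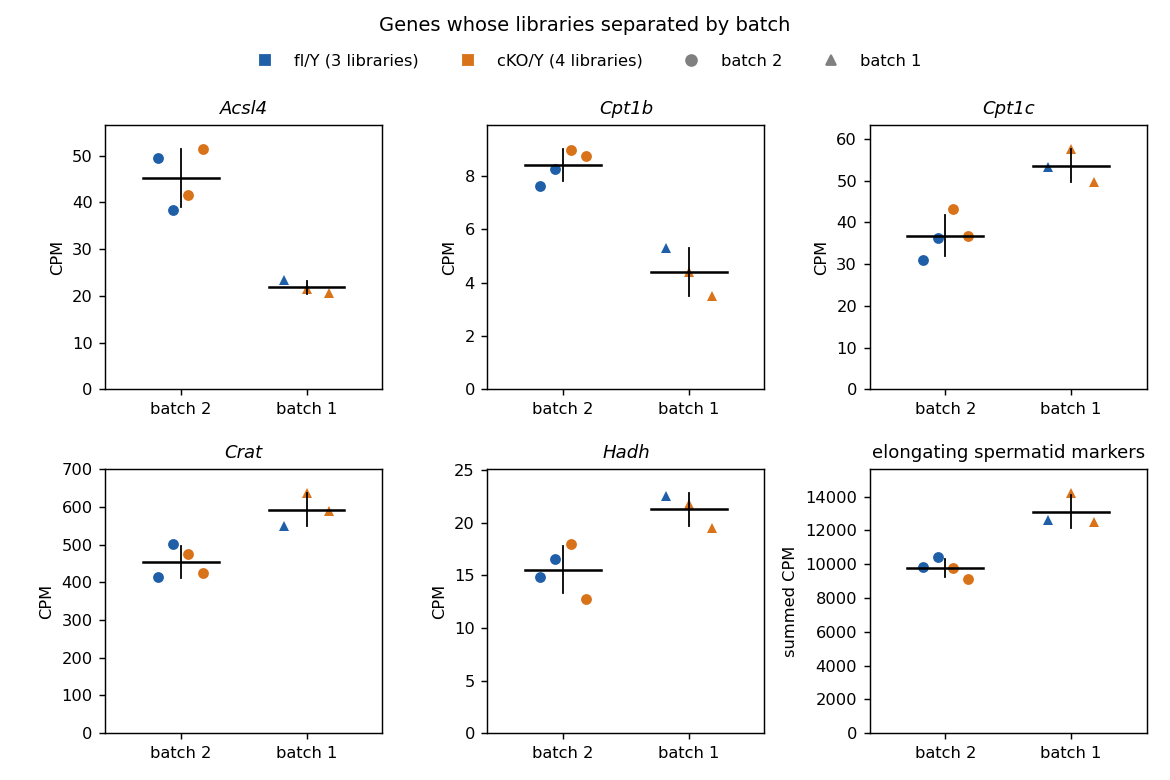
CPM in each library by batch for *Acsl4*, *Cpt1b*, *Cpt1c*, *Crat* and *Hadh*, and the summed CPM of 10 elongating spermatid markers, with means (horizontal lines) and 1 SD (vertical lines), blue for fl/Y and orange for cKO/Y. In each panel the 4 libraries of batch 2 and the 3 of batch 1 do not overlap, and both colours occur in each batch.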

How the data were processed

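Total testis RNA of 3 fl/Y and 4 cKO/Y males was sequenced as paired ends of 35 bases. The genome build GRCm38 and the tools edgeR, featureCounts and HISAT2 2.1.0 are named in the submitters' processing notes, but TopHat and HTSeq in the paper's methods, so how reads were counted is uncertain. The signal values deposited by the authors are CPM. Each of them was a whole number of reads (tolerance 0.001) times a constant of its library that matched a TMM scaling, so reads could be recovered.

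Testing used limma 3.58.1 (R 4.3.3) on log2(CPM + 0.5), with batch as a covariate, for the 19400 genes that exceeded 1 CPM in 3 or more of the 7 libraries, and Benjamini-Hochberg adjustment over all of them. An exact permutation test of 3 against 4 libraries cannot go below p = 0.0571 and was not used. P-values measure the spread between libraries. The method was tested on simulated data. At an adjusted p under 0.05 it called 61 of 96 genes set to a 2-fold change (63.5%) and 95 of 100 set to 4-fold. The spread between simulated libraries was set and not estimated from these data, so these shares need not hold here. Alternatives were other pseudocounts, filters and scaling, leaving out the batch term, a replicate block, single batches, leaving out single libraries, and edgeR 4.0.16 and DESeq2 1.42.0 on recovered reads. The 8 genes of the pathway with the smallest unadjusted p were given in full. The genes of the pathway, the lists and the tests were chosen with earlier results of these data known. The batch comparison, the lengths of coding transcripts and the ratio of *Hadha* to *Hadhb* were added after the values were seen. Lengths, overlaps and shared 35-base words come from GENCODE M21, and sequences from RefSeq (GRCm38.p6).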

Additional observations from a re-analysis of the deposited data

Results flagged for a closer look

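In 3 of 39 genes (the 38 and *Rlim*) 1 of the 4 cKO/Y libraries lay far from the other 3, by Dixon's test for outliers, which chance gives in about 1 in 20 groups. *Slc27a1* was at 17.3 CPM in cKO/Y replicate 2 and at 28.4 to 30.2 CPM in the others. *Slc27a2* was at 0.315 CPM, from 1 read, in cKO/Y replicate 3 and at 0.598 to 0.620 CPM in the others. *Hadhb* was at 60.8 CPM in cKO/Y replicate 1 and at 88.7 to 92.9 CPM in the others.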

How the results depend on the processing

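Under each of the 18 alternatives 0 of the genes of the pathway that were tested (31 with a mean CPM above 5, 36 without any 1 fl/Y library or cKO/Y replicate 4, 37 without cKO/Y replicate 2, otherwise 38) reached an adjusted p under 0.05, including the replicate block in place of the batch (0), and the median log2 fold change stayed between -0.066 and 0.056. Correlations of the libraries' deviations were 0.101, 0.066 and 0.392 for replicate numbers 1 to 3. For numbers 2 and 3 these were the highest of the fl/Y library, but fl/Y replicate 1 was higher with cKO/Y replicate 2 (0.474). Replicate numbers also follow the batch, so whether they pair the libraries cannot be told from these values. With the replicate block *Slc27a2* and *Decr2* remained the 2 lower genes at an unadjusted p under 0.05. *Rlim* then had a log2 fold change of -1.35 with an adjusted p of 0.307 by limma. The count of 2 lower genes was 1 with a mean CPM above 5 (86 of all 11996 genes tested), where *Slc27a2* was not tested. It was between 0 and 3 with single libraries left out. It was 0 without fl/Y replicate 2 (163 of all 18946 genes tested) and 3 without cKO/Y replicate 3 (219 of 19017). *Slc27a2* was not tested without any one fl/Y library, and *Decr2* lost its unadjusted p without fl/Y replicate 2. In batch 1 alone, with 1 fl/Y library, the log2 fold changes were -0.62 for *Crot*, -0.72 for *Acadl* and 0.65 for *Acaa2*. In batch 2 alone they were 0.31 for *Crot* and -0.31 for *Acaa2*. *Acadl* reversed to 0.018 in batch 2 alone, and its log2 fold change was between -0.43 and 0.018 (without fl/Y replicate 3) with single libraries left out. *Rlim* was no longer called without the batch term (-1.48), in batch 2 alone (-1.29), and without fl/Y replicate 1, fl/Y replicate 3 or cKO/Y replicate 4, and with single libraries left out its value was between -1.52 and -1.28. Of the batch calls, the 2 higher genes were 0 to 2 with single libraries left out. They were 0 without fl/Y replicate 3, where 27 of all 18870 genes tested were higher. *Cpt1b* was no longer called without any 1 library other than cKO/Y replicate 1. The 0 lower genes were 0 to 3 with single libraries left out. They were 3 without cKO/Y replicate 1, where 1575 of all 19054 genes tested were lower. *Cpt1c* was the 1 lower gene with a mean CPM above 5 (638 of all 11996 genes tested) or quantile normalization (717 of 19400). The causes were not tested. Per kb of the longest coding transcript the fl/Y shares were 58.4% in place of 52.4% for *Cpt1c*, 10.4% for 16% for *Cpt1b*, 60.8% for 66% for *Acsbg2* and 6.28% for 8.85% for *Slc27a2*, and the values of *Acsl1* and of the ratio of *Hadha* to *Hadhb* stand beside their results. With 1 to 14 reads per library, *Slc27a2*, *Ehhadh* and *Acaa1b* are limited by depth.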
